A study of Homo sapiens with 14 samples.

Results

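Kasumi-1 is a cell line established from human acute myeloid leukaemia, and it carries the t(8;21) fusion AML1-ETO. The comparison described is that of an siRNA against AML1-ETO with an siRNA against firefly luciferase, both delivered to Kasumi-1 cells with the lipid reagent siLentFect at 240 nM, with RNA taken 96 h later. The 6 arrays were chosen by their titles, 3 for each siRNA, out of 14 arrays in the series. The other arrays hold untransfected cells (2 arrays), cells that received the same siRNAs by Amaxa nucleofection, an electrical transfection, at 1.5 µM (3 arrays for AML1-ETO and 2 for luciferase), and nucleofected cells without siRNA (1 array). All 14 arrays are from the same line, so each group carries the fusion, and each was grown in medium with 10% fetal calf serum. Dose and way of delivery differ together between lipid and nucleofection, and their parts cannot be told apart. The labels do not say that replicates came from separate cultures, so the p-values describe how these arrays vary, and that variation may be technical.

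AML1-ETO joins the DNA-binding part of RUNX1 (AML1), a transcription factor that drives blood cell development, to nearly all of RUNX1T1 (ETO), a corepressor. The fusion binds RUNX sites and recruits histone deacetylases, and it is known for holding myeloid blasts at an immature stage in which granule and other maturation genes are repressed. Genes made in step with granulocyte and monocyte maturation include the azurophil granule proteases, the proteoglycan that packs them, calcium-binding S100 proteins and signalling adaptors of immune receptors.

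The control siRNA is shown because every difference below is measured against it. Its 2 strands, as the labels give them without their dTdT overhangs, are written with capitals at the position where they do not pair.

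luciferase sense strand: cguacgcGgaauacuucga

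luciferase antisense strand: ucgaaguauucGgcguacg

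The antisense strand as given pairs with the sense strand at 18 of 19 positions. Against the reverse complement of the sense strand it has the difference C12G, with positions counted from 1 at the 5′ end of the antisense strand. The strands given for the AML1-ETO siRNA pair at 19 of 19 positions. Whether the difference is in the oligo or in its written description cannot be told apart.

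The values are MAS5 signals, a linear measure of brightness for each probe set (a group of short probes for 1 transcript). Every array has the same mean signal of 138.5. Signals below 20 were raised to this floor before log2 was taken, which touched between 40% and 42.9% of probe sets on the 6 lipid arrays. A difference is the log2 mean with AML1-ETO siRNA minus that with luciferase siRNA, and a probe set is called changed where limma's adjusted p is below 0.05. Pearson correlations of log2 signal between pairs of lipid arrays lay between 0.958 and 0.976, and the lowest was between 2 arrays of the AML1-ETO group, replicates 2 and 3. The share of probe sets at the floor, the scale factors, the GAPDH and ACTB 3′ to 5′ ratios and the ribosomal RNA control signal overlapped between the groups (exact two-sided permutation p from 0.3 to 1, where 3 against 3 arrays cannot go below 0.1). Of 9 blast markers on the array, 8 were above the floor on at least 1 lipid array. MPO, the granule peroxidase, had a mean signal of 6433 with AML1-ETO siRNA and 6034 with luciferase siRNA, and KIT, a growth factor receptor, had 2037 and 2043. CD4 and FUT4 lay between KIT and PTPRC in mean signal with either siRNA. The rest of the 8 were dim, with 90.2 and 94.8 for PTPRC, 69.0 and 75.0 for CD34, 53.9 and 46.1 for SPN, and 43.9 and 39.3 for CD38. ANPEP, a surface peptidase often used as a blast marker, was below the floor on all 6 arrays, where its highest signal was 14.5.

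The targeted transcript was a little lower with its siRNA than with luciferase siRNA. RUNX1T1 is the partner of the fusion that was read, since no probe set carried RUNX1 as its single symbol. Probe sets with several symbols were not named, so this is a limit of the annotation used. The brightest RUNX1T1 probe set, 205529_s_at, read 400, 426 and 502 with AML1-ETO siRNA. It read 540, 560 and 567 with luciferase siRNA and 619 and 514 in untransfected cells. The groups did not overlap. With means taken on the log2 scale and turned back to signal, the AML1-ETO group was 20.7% lower. The log2 difference of −0.34 ± 0.13 (SE, n = 3 and 3) was not called (limma adjusted p = 0.958, adjusted over all probe sets fitted without the filter on low values). Probe set 205528_s_at read 157, 164 and 166 against 178, 210 and 208, a difference of −0.29. Probe set 216831_s_at read 30.0, 37.0 and 34.3 against 72.7, 52.0 and 45.4, and its difference of −0.72 ± 0.17 was the largest of the 4 (adjusted p = 0.433). Probe set 216832_at overlapped between the groups, at 153, 151 and 160 against 161, 147 and 193. Untransfected cells read 118 and 111 for it, below both groups. They read 187 and 213 for 205528_s_at and 54.3 and 68.8 for 216831_s_at, above the AML1-ETO arrays. Thus for 3 of 4 RUNX1T1 probe sets all 3 AML1-ETO arrays lay below the lowest luciferase array. Of all 13329 probe sets tested, 5.56% were lower in this way. The means of these 3, taken on the log2 scale and turned back to signal, were lower by 18.1% to 39.5%, and none of the 4 was called. By nucleofection the same 4 probe sets differed by −1.08 (205528_s_at), −1.24 (205529_s_at), −1.10 (216831_s_at, a bound since that group lay below the floor) and −0.35 (216832_at). For 205529_s_at the lipid difference was smaller in size by 0.90 ± 0.20, but this difference between the ways of delivery was not called (adjusted p = 0.12).

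**Figure D1:**
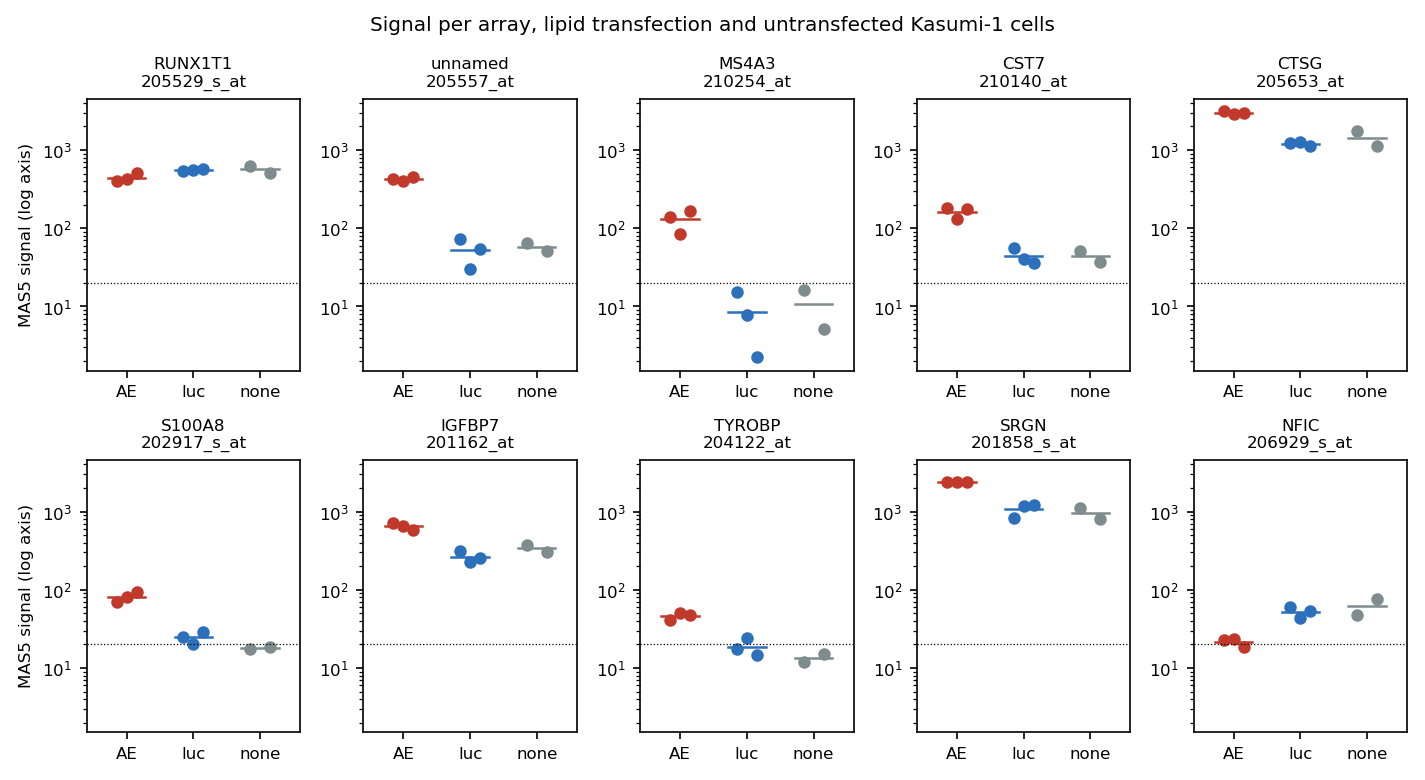
Signal of each array (log axis) for the brightest RUNX1T1 probe set and the 9 called probe sets, with AML1-ETO siRNA (AE, 3 arrays), luciferase siRNA (luc, 3 arrays) and no transfection (none, 2 arrays). Points are arrays, bars are means and the dotted line is the floor of 20. RUNX1T1 separates narrowly, 400 to 502 against 540 to 567, while MS4A3 goes from below the floor in all 3 luciferase arrays to between 84.1 and 166.

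Few genes changed, and nearly all of them rose. Of 13329 probe sets tested, 9 were called (0.0675%), of which 8 were higher (0.0600%) and 1 lower (0.00750%) with AML1-ETO siRNA. Among the 8 that rose, 4 are on the granule protein list used (MS4A3, CST7, CTSG and SRGN) and 2 on the monocyte list (S100A8 and TYROBP). The others are IGFBP7 and 1 probe set that the annotation gives 2 symbols and that is therefore not named. With quantile scaling 8 were called and with arrays set to one median 10 were called, and every one of these was higher. The count was 0 with only the 6 lipid arrays in the fit, where 667 probe sets had an unadjusted p below 0.05 by limma. It was 5 without the filter on low values, 17 with an intensity trend and robust prior, and 4 to 6 when 1 array was left out, with 4 without AML1-ETO replicate 3 or luciferase replicate 2. At an unadjusted p below 0.05, 249 probe sets were higher (1.87%) and 399 lower (2.99%). The groups did not overlap for 440 probe sets that were higher (3.30%) and 741 that were lower (5.56%). The smallest difference called was 1.11 in size, the median SE over all probe sets was 0.205, and the median difference over all of them was −0.0387. The RNA is from whole cultures, so more maturing cells and more RNA per cell cannot be told apart.

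**Figure D2:**
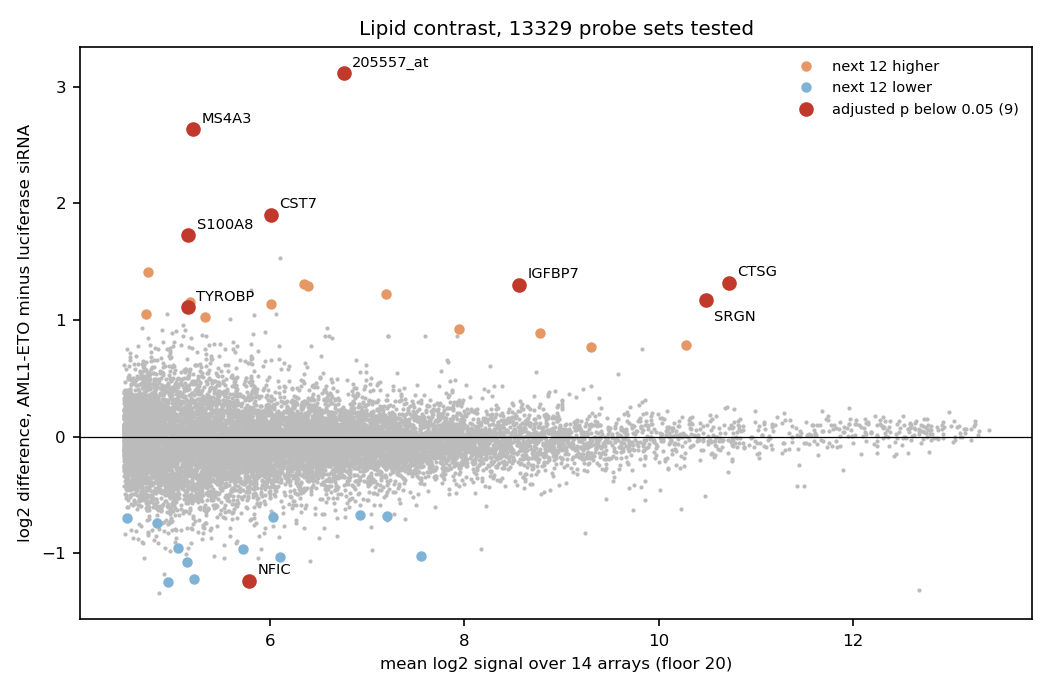
Log2 difference between AML1-ETO and luciferase siRNA by lipid against the mean log2 signal over 14 arrays, for 13329 probe sets. The 9 called probe sets (red) include 2 of high signal, CTSG and SRGN, and the next 12 on either side (orange and blue) lie between 0.77 and 1.41 and between −1.24 and −0.67.

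Of the 4 genes of the granule protein list that rose, CTSG and SRGN were bright. CTSG is cathepsin G, a serine protease stored in azurophil granules. It read 3154, 2864 and 2982 with AML1-ETO siRNA and 1225, 1265 and 1114 with luciferase siRNA. The groups were far apart, and untransfected cells read 1731 and 1121, one above and one within the luciferase range. The mean was 3000 ± 146 against 1201 ± 78.6 (SD, n = 3 and 3), a log2 difference of 1.32 ± 0.16 (SE) or 2.5-fold (limma adjusted p = 0.00637). SRGN is serglycin, the proteoglycan core that packs granule proteases. It read 2397, 2369 and 2400 against 827, 1174 and 1221, and the 3 AML1-ETO arrays were close to one another while luciferase replicate 1 was the lowest. Its difference was 1.17 ± 0.18, or 2.26-fold (adjusted p = 0.0319), and a second SRGN probe set, 201859_at, differed by 0.76 without being called (adjusted p = 0.409).

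MS4A3 and CST7 rose from low levels. MS4A3 is a membrane protein of granulocyte and monocyte progenitors. It read 138, 84.1 and 166 with AML1-ETO siRNA against 15.5, 7.74 and 2.26 with luciferase siRNA, so all 3 control arrays were below the floor. The rise was at least 6.22-fold against the floor (log2 difference 2.64 ± 0.24, adjusted p = 0.000345). CST7 is cystatin F, an inhibitor of lysosomal cysteine proteases. It read 180, 133 and 176 against 55.9, 39.9 and 36.1, and untransfected cells read 50.9 and 36.5, at the level of the luciferase arrays. Its difference was 1.90 ± 0.20, or 3.74-fold (adjusted p = 0.00124).

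The probe set without a single symbol, 205557_at, had the smallest p. It read 431, 400 and 450 against 73.1, 29.8 and 54.5. The means were 427 ± 25 and 52.5 ± 21.7 (SD), so the low group spread more only relative to its mean, and the groups were far apart. The difference was 3.12 ± 0.26, or 8.68-fold (adjusted p = 0.000282). Its size cannot be ranked against that of MS4A3, which is a bound, and with a floor of 10 the differences were 3.12 and 3.43.

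Both monocyte genes called were dim. S100A8, a calcium-binding protein that makes up part of calprotectin, read 69.1, 80.6 and 94.5 against 25.0, 20.1 and 29.0. Its difference was 1.73 ± 0.23, or 3.31-fold (adjusted p = 0.0131), and it was 0.34 (adjusted p = 0.678) with a floor of 64, which covers most of its range. TYROBP, a transmembrane adaptor that carries the signal of several immune receptors to the Syk kinase, read 41.5, 49.8 and 47.1 against 17.4, 24.0 and 14.7. Since 2 of 3 luciferase arrays were below the floor, its difference of 1.11 ± 0.16 (adjusted p = 0.0227) is set in part by the floor, and with a floor of 10 it was 1.33 (adjusted p = 0.0549). S100A9, which pairs with S100A8, did not overlap between the groups but was not called, with means of 45.9 ± 6.97 and 34.3 ± 2.32 and a difference of 0.41 (adjusted p = 1).

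IGFBP7 is a secreted protein related to the insulin-like growth factor binding proteins. Probe set 201162_at read 722, 648 and 573 against 310, 227 and 253, while untransfected cells read 371 and 304. The lowest AML1-ETO array was thus above each of these 5 arrays. The difference was 1.30 ± 0.18, or 2.47-fold (adjusted p = 0.0177), and the second tested probe set, 201163_s_at, differed by 0.66 (adjusted p = 0.763). Of the 9 insulin-like growth factor binding and receptor genes tested, IGFBP7 was the 1 called.

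NFIC, a nuclear factor I transcription factor, was the 1 gene called lower. Probe set 206929_s_at read 22.9, 23.6 and 18.6 with AML1-ETO siRNA against 60.9, 43.6 and 52.9 with luciferase siRNA, and 47.5 and 75.6 in untransfected cells. All 3 AML1-ETO arrays were at or near the floor. The difference was −1.23 ± 0.19 (adjusted p = 0.0333). Its other probe set, 213298_at, differed by −0.54 (adjusted p = 1). The call was lost with quantile scaling (−1.14, adjusted p = 0.0575), with arrays set to one median (−1.18, adjusted p = 0.0699) and with a floor of 10 (−1.27, adjusted p = 0.0605).

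The upstream sequences of 3 genes that rose are shown because AML1-ETO binds DNA through its RUNX part. They are the 250 bases before the annotated start of CTSG (chr14:24576251-24576500, minus strand), TYROBP (chr19:35908296-35908545, minus strand) and MS4A3 (chr11:60056415-60056664, plus strand), from RefSeq on GRCh38.p14, in the direction of transcription. Capitals mark matches on either strand to the RUNX cores TGTGGT and TGCGGT or to GAGGAAG, a sequence of the kind bound by the myeloid ETS factor PU.1.

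CTSG: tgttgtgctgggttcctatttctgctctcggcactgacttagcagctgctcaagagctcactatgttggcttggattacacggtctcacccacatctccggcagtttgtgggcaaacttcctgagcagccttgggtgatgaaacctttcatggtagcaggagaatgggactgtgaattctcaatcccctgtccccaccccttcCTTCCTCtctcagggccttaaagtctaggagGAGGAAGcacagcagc

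TYROBP: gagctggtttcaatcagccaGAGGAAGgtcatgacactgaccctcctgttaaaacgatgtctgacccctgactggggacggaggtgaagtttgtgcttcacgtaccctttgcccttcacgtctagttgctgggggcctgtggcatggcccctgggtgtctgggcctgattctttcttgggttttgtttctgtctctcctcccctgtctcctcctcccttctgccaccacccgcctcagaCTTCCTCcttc

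MS4A3: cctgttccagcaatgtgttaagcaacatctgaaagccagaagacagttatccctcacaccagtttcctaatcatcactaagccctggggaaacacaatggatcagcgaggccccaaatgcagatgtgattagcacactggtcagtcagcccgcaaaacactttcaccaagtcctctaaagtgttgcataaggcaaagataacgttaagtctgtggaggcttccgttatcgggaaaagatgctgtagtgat

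Neither RUNX core is written in these 3 windows. CTSG has GAGGAAG with its first letter 16 bases before the start and its reverse complement 47 bases before it, TYROBP has them 230 and 11 bases before the start, and MS4A3 has neither. Of the 17 named genes that were higher (7 called and 10 described next), 13 had at least 1 window in the table, with 20 windows between them. A RUNX core was in 2 of these 20 windows (10.0%), those of CEACAM6 and of 1 AIF1 start, beside 16.3% of all 35116 windows. GAGGAAG was in 8 of the 20 (40%), from 5 genes, beside 11.2% of all windows. Windows of 1 gene overlap or lie close together and are not independent. Of the 13 named genes that were lower, 11 had a window each, and GAGGAAG was in 1 of these (9.09%) and a RUNX core in 2 (18.2%). The matches are descriptions of these letters in this window only.

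The next higher probe sets did not pass the threshold. The 12 probe sets with the smallest p among those not called, higher and with groups that did not overlap, came from 10 genes. Their differences lay between 0.77 and 1.41, with adjusted p from 0.0581 to 0.278. By the lists used, RNASE2 is a granule gene, LST1 and AIF1 are monocyte genes, CEACAM6 is a neutrophil maturation gene, LAPTM5 is with the adaptors and CD24 with the adhesion genes, and MTARC1, SORBS3, UGDH and USF2 are on no list. CEACAM6, an adhesion protein of granulocytes, read 55.9, 46.1 and 70.5 against 17.5, 28.5 and 28.9, a difference of 1.16 ± 0.19. RNASE2, a ribonuclease of eosinophil granules, read 889, 697 and 799 against 430, 451 and 519, a difference of 0.77 ± 0.17. LAPTM5, a membrane protein of the lysosomes of blood cells, read 1678, 1719 and 1541 against 925, 963 and 977 with probe set 201721_s_at. Its lowest AML1-ETO array stood well above its highest luciferase array, at a difference of 0.78 ± 0.15 (adjusted p = 0.151), and its other probe set differed by 0.89. CD24, a small surface glycoprotein, read 520, 388 and 547 against 211, 276 and 276 with probe set 216379_x_at, a difference of 0.93 ± 0.20. LST1 and AIF1, leukocyte genes that lie near each other in the major histocompatibility region, had differences of 1.31 (214574_x_at) and 1.14 (211582_x_at) for LST1 and 1.23 (209901_x_at) for AIF1. The remaining genes were MTARC1, a mitochondrial reductase (1.41, with all 3 luciferase arrays below the floor), SORBS3, an adhesion adaptor (1.05, likewise), UGDH, which makes UDP-glucuronate (1.02), and the transcription factor USF2 (1.29).

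The 12 probe sets with the smallest p on the lower side came from 12 genes, with differences between −1.24 and −0.67 and adjusted p from 0.0886 to 0.396. IFIT2, an interferon-induced protein, read 20.1, 18 and 9.77 against 47.9, 53.8 and 41.3, a difference of −1.24 ± 0.22. The untransfected arrays read 40.4 and 13.3 for it, so they span both groups. SMC3, a cohesin subunit, read 86.9, 70.0 and 81.0 against 205, 136 and 149, a difference of −1.03 ± 0.21. EIF5B, a translation initiation factor, read 46.2, 47.7 and 43.7 against 72.0, 76.1 and 73.8, the tightest of these pairs of groups by SD (2.03 and 2.05), and differed by −0.69 ± 0.14 (adjusted p = 0.194). KPNA6, an importin, read 90.3, 77.2 and 99.7 against 160, 121 and 144. The others were BEX1, KCNJ5, SZRD1, TMEM209, ADAM22, GNL3L, FAHD2A and PSD3, with differences from −1.22 (SZRD1) to −0.68 (GNL3L). With AML1-ETO siRNA 11 of the 12 were below untransfected cells in mean, and 6 without overlap (median difference −0.55). With luciferase siRNA the median difference from untransfected cells was 0.27. FAHD2A had means of 57.4 with AML1-ETO siRNA, 110 with luciferase siRNA and 51.7 in untransfected cells.

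Probe sets of 1 gene agreed in sign among most of the higher genes and disagreed among most of the lower ones. All tested probe sets were above 0 for LST1 (6 of 6, from 0.67 to 1.31), CD24 (6 of 6, from 0.33 to 0.96), AIF1 (4 of 4, from 0.27 to 1.23), LAPTM5, CEACAM6, IGFBP7 and SRGN (2 of 2 each). Of these, 4 for LST1, 3 for CD24 and 3 for AIF1 did not overlap between the groups. USF2 was the exception, with 1 of 3 above 0 (from −0.22 to 1.29). Among the lower genes, all tested probe sets were below 0 for NFIC (2), KCNJ5 (2), GNL3L (3, from −0.68 to −0.08) and KPNA6 (3, from −0.71 to −0.50). At least 1 tested probe set was above 0 for EIF5B (1 of 5), SMC3 (2 of 3), SZRD1 (1 of 4), ADAM22 (1 of 3), FAHD2A (1 of 2) and PSD3 (1 of 3). Probe sets of 1 gene can share probes and transcripts, and names that end in _x_at or _s_at can take signal from related transcripts, so they are not independent readings.

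**Figure D3:**
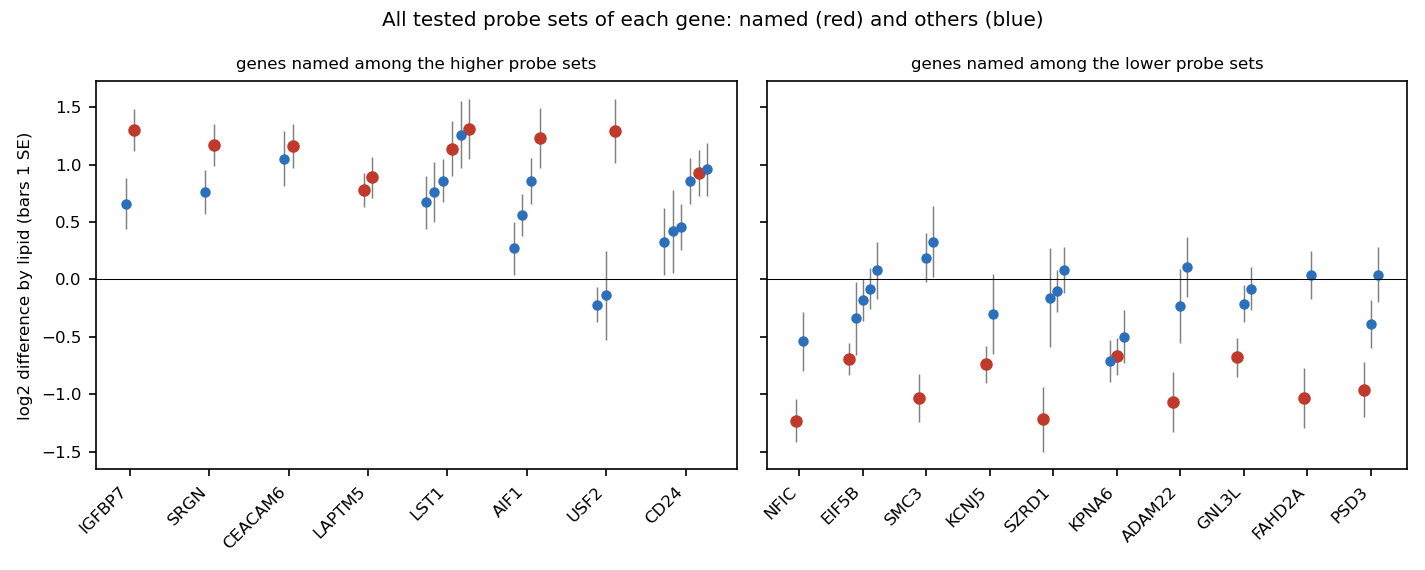
Log2 difference by lipid (± 1 SE) of every tested probe set of the named genes that have more than 1, with the probe set named in the text in red and the others in blue. On the left, all points of each gene but USF2 lie above 0. On the right, SMC3 spans −1.03 to 0.33 and KPNA6 stays between −0.71 and −0.50.

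The groups of genes were read from lists, with 1 probe set for each gene, that of the highest mean. The lists were written with earlier results of these data known, so the shares called in them are descriptions and not tests. Over all 8130 genes tested this way 7 were called higher and 1 lower (0.0984%), 282 were higher without overlap (3.47%) and the median difference was −0.03. Without overlap 393 were lower (4.83%), and an unadjusted p below 0.05 by limma was found for 150 higher and 212 lower genes. The 15 genes tested of the granule protein list include MS4A3, a membrane protein of progenitors, and CST7, a protease inhibitor. Of the 15, 4 were called (26.7%) and 5 were higher without overlap, the fifth being RNASE2, at a median of 0.12. The other 10 did not stand apart. AZU1, another azurophil protein, had means of 1524 ± 161 and 1234 ± 197 (difference 0.31), and MPO differed by 0.07, ELANE by 0.12, PRTN3 by −0.10 and LYZ by 0.02, each with an adjusted p of 1. The genes called are thus not the 2 brightest of the list, which had means of 6433 (MPO) and 5013 (ELANE) with AML1-ETO siRNA.

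Among 14 monocyte genes 2 were called (14.3%) and 6 were higher without overlap (42.9%, beside 3.47% of all genes), at a median of 0.25. LST1 and AIF1 were among the latter, as was CSF1R, the receptor for macrophage colony-stimulating factor (50.3 ± 11.1 against 29.4 ± 5.73, difference 0.77, adjusted p = 0.917). FCER1G, another receptor adaptor, overlapped at a difference of 0.25. So did CD300A (0.26), FCN1 (0.09), S100A12 (0.06), SERPINA1 (−0.12), VCAN (−0.14), CD86 (−0.18) and CCR2 (−0.42). Among 16 genes of receptor adaptors and Src family kinases 1 was called, TYROBP, and 4 were higher without overlap (25.0%, beside 3.47%), at a median of 0.20. These include the phosphatase PTPN6 (305 ± 34.1 against 240 ± 13.6, difference 0.34) and the exchange factor VAV1 (195 ± 14.4 against 162 ± 4.75, difference 0.27). Among the kinases, SYK differed by 0.43, LYN by −0.06, BTK by −0.01 and FYN by −0.52, and all of these overlapped. TYROBP is on both lists.

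Of 16 neutrophil maturation genes none was called by limma, while 5 were higher without overlap (31.2%, beside 3.47% of all genes). An unadjusted p below 0.05 was found for 4, all higher, beside 150 higher of all 8130 genes. These were CEACAM6, the integrin chain ITGB2 (47.0 ± 5.50 against 27.3 ± 6.94, difference 0.81), the selectin ligand SELPLG (87.5 ± 36.6 against 40.7 ± 7.64, difference 1.04) and CEBPE, a transcription factor of late granulopoiesis (232 ± 23.7 against 170 ± 7.34, difference 0.44, adjusted p = 0.888). CYBA, a subunit of the phagocyte oxidase, was the fifth without overlap, at 0.17. Other late genes were near their control level, with MMP9 at −0.03, ITGAM at −0.17, MNDA at −0.01 and CSF3R at −0.27.

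Of 18 genes on the list of myeloid transcription factors 1 was called, NFIC (5.56%), which was lower, and the median difference was 0.04. Beside it, 2 were higher without overlap (11.1%) and were not called, CEBPE at 0.44 and IRF8, a factor of monocyte fate, at 0.39 (30.2 ± 6.11 against 22.8 ± 1.99, adjusted p = 1). SPI1, which encodes PU.1, had means of 181 ± 17.1 and 168 ± 8.45 (difference 0.10, adjusted p = 1), CEBPA differed by 0.07, MYB by 0.12, GFI1 by −0.35, and the RUNX partner CBFB by 0.14. Of 11 stem and progenitor genes none was called, none had an unadjusted p below 0.05 by limma, and none stood apart in either direction. CD34 had means of 69.0 ± 3.88 and 75.0 ± 4.79 and SOX4 differed by −0.42 (unadjusted p = 0.0806). Of 16 ETO cofactors and E proteins none was called and 2 had an unadjusted p below 0.05, each higher, beside 150 higher of all 8130 genes. CBFA2T3, an ETO family member, had means of 84.4 ± 15.2 and 49.5 ± 15 (difference 0.80, adjusted p = 0.545), and ID2, an inhibitor of E proteins, had 68.7 ± 6.37 and 45.6 ± 10.2 (difference 0.61, adjusted p = 0.852). HDAC1, HDAC3 and EP300 differed by −0.26, −0.27 and −0.31 and overlapped.

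Over all genes 0.0984% were called, so a count of 0 does not set lists of 9 to 35 growth, death and stress genes apart. None was called by limma among 28 DNA replication genes, 28 mitosis genes, 16 G1 genes, 9 p53 targets, 9 BCL2 family genes, 19 genes of the MYC network and ribosome biogenesis, 26 lysosome genes, 35 ribosomal proteins and 13 interferon and nucleic acid sensor genes. Unadjusted p below 0.05 was found for 2, 1, 1, 0, 1, 2, 2, 0 and 2 of them in that order, beside 150 higher and 212 lower of all 8130 genes. Without overlap between the groups, 3 of the 9 BCL2 family genes were higher (33.3%, beside 3.47% of all genes) and 3 of the 19 MYC network genes were lower (15.8%, beside 4.83%). CCNE2, a G1 cyclin, was among the higher ones (40.6 ± 4.84 against 28.5 ± 1.78, difference 0.50, adjusted p = 0.577), as was BCL2, an inhibitor of apoptosis (74.6 ± 13.5 against 51.1 ± 6.00, difference 0.54, adjusted p = 0.851). The other BCL2 family genes without overlap were BCL2L2 (0.36) and BID (0.10). MYC itself read 1053 ± 48.4 against 1060 ± 67.7. TFAP4, a transcription factor of that network, had 53.4 ± 7.07 against 91.3 ± 23.4 (difference −0.75, adjusted p = 0.479), and the RNA helicase DDX21 had 1049 ± 143 against 1486 ± 173 (difference −0.50), and POLR1B, an RNA polymerase subunit, was the third without overlap (−0.23). Among interferon genes, IFIT2 (−1.24) stood apart, while BST2 (0.56), IFIT3 (−0.14), MX1 (0.29) and OAS3 (−0.14) overlapped. BST2 had means of 44.9 ± 4.42 and 31.4 ± 10.3, beside 54.8 in untransfected cells.

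**Figure D4:**
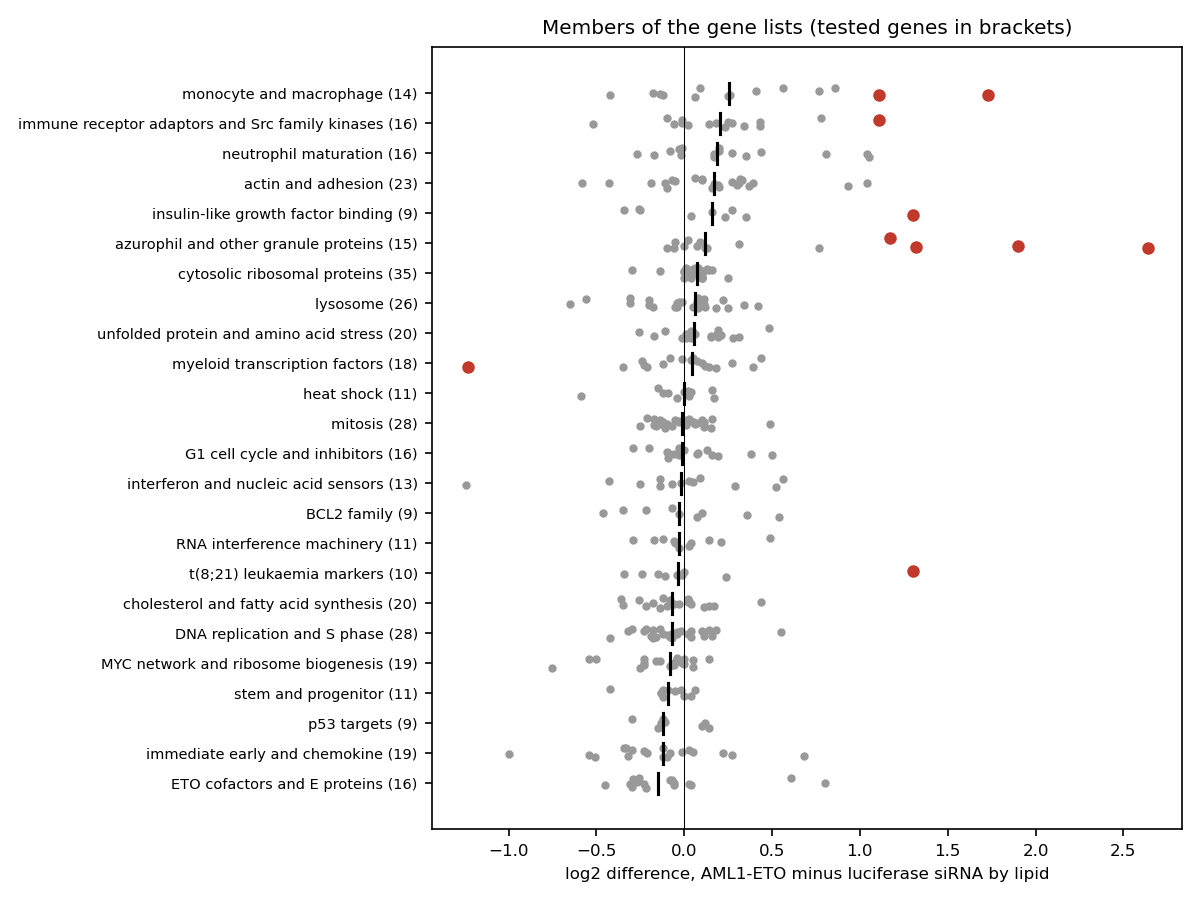
Log2 difference by lipid for each tested gene of 24 lists, with 1 point a gene, the list's median as a black bar and genes with an adjusted p below 0.05 in red. The red points lie in the granule, monocyte, adaptor, t(8;21) marker and insulin-like growth factor lists on the right and at NFIC on the left, and the list medians lie between −0.15 and 0.25.

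Marker genes of other cells were read as lists of summed signal and gene by gene. The summed signal of 13 lymphoid markers ranged from 288 to 326 with AML1-ETO siRNA and from 264 to 326 with luciferase siRNA, with CD3D, CD3G, CD7, CD79B and GNLY below the floor on all 6 arrays. The other 8 were above it on at least 1 lipid array, among them CD3E (60.6 and 58.0), CD22 (57.5 and 49.6) and CD8A (44.9 and 51.9). These are as bright as the dim blast markers SPN and CD38. NKG7, a granule membrane protein of killer cells, was the 1 gene of that list without overlap (32.9 ± 8.17 against 1.26 ± 0.173, the latter below the floor, adjusted p = 0.396). The sums for 15 erythroid and megakaryocytic markers were 2668 to 2833 and 2735 to 2887, with ALAS2, PPBP and VWF below the floor. TFRC (2006 and 2066) and EPOR (428 and 410) make up most of these sums. The lineage markers HBB (51.0 and 49.1), PF4 (35.6 and 38.3), ITGA2B (27.4 and 22.4) and GATA1 (21.8 and 23.5) were near the floor, and all 11 genes tested overlapped between the groups. The sums for 11 markers of mast cells, eosinophils and basophils were 124 to 181 and 127 to 179, with ENPP3, FCER1A and PRG2 below the floor. Those for 17 markers of cells outside the blood were 517 to 560 and 537 to 582, with 7 of these genes below the floor on every lipid array. The other 10 were above it on at least 1, and EPCAM (219 and 210) and COL1A1 (87.3 and 92.8) were brighter than CD34.

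Untransfected cells give a second control, which shares the AML1-ETO arrays with the comparison above, so the values are set side by side only. Against 2 untransfected arrays, 9 probe sets were called (0.0675%), 8 higher (0.0600%) and 1 lower (0.00750%). CST7 differed by 1.91 from untransfected cells and by 1.90 from luciferase siRNA, S100A8 by 2.01 and 1.73, SRGN by 1.32 and 1.17, TYROBP by 1.2 and 1.11, and NFIC by −1.44 and −1.23. CTSG differed by 1.11 from untransfected cells (adjusted p = 0.0531) and IGFBP7 by 0.94 (adjusted p = 0.235), and neither was called there. CEACAM6 (203757_s_at) was called there, at 1.43 (adjusted p = 0.0259). Without untransfected replicate 3, 0 probe sets were called by limma (556 had an unadjusted p below 0.05), and without replicate 1, 11 were. ATN1, a nuclear corepressor, was the 1 gene called both for AML1-ETO siRNA against untransfected cells (1.17, adjusted p = 0.017) and for luciferase siRNA against untransfected cells (1.64, adjusted p = 0.00199). Its means were 45.3 ± 6.49, 62.4 ± 5.90 and 17.3 ± 0.943 with AML1-ETO siRNA, luciferase siRNA and no transfection. It was the only probe set called for luciferase siRNA by lipid against untransfected cells (0.00750%).

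The group means by nucleofection at 1.5 µM came from arrays that the lipid group means do not share. Both comparisons came from the same fit, with a common estimate of spread and a filter by mean over all arrays. Their calls are therefore not independent. By nucleofection 280 probe sets were called between AML1-ETO and luciferase siRNA (2.10%), 172 higher (1.29%) and 108 lower (0.810%). All 8 probe sets called higher by lipid were called higher by nucleofection as well, and NFIC had the same sign without a call (−0.65, adjusted p = 0.143). CTSG differed by 3.76 by nucleofection, at 5903, 5550 and 5705 against 419 and 423, and by 1.32 by lipid. SRGN differed by 3.00 and 1.17, CST7 by 2.94 and 1.90, IGFBP7 by 2.82 and 1.30, and TYROBP by 2.23 and 1.11. In S100A8 and MS4A3 the order was the other way, with 1.40 by nucleofection and 1.73 by lipid for S100A8 and 1.49 and 2.64 for MS4A3, where both control groups were below the floor. By nucleofection 1 luciferase array was also below the floor for S100A8 (10.2) and for CST7 (8.71), so these nucleofection differences are bounds. The AML1-ETO means of CST7 were 163 by lipid and 155 by nucleofection. MS4A3 reached 58.6, 71.5 and 42.0 by nucleofection and 84.1 to 166 by lipid, but the test of the difference between the effects was not called for either gene (MS4A3 1.15 ± 0.36, adjusted p = 0.296, and S100A8 0.33 ± 0.35, adjusted p = 0.806). The difference between AML1-ETO and luciferase siRNA was smaller by lipid, with a call of the test of the effects, for CTSG and SRGN among the 9 called probe sets and for CD24 (216379_x_at) among the next ones. For CTSG the AML1-ETO mean was 3000 by lipid and 5719 by nucleofection, while the luciferase mean was 1201 and 421, beside 1426 in untransfected cells. For SRGN the AML1-ETO means were 2389 and 3955 and the luciferase means 1074 and 492, beside 966. For CD24 the AML1-ETO means were 485 ± 85.1 by lipid and 452 ± 16.4 by nucleofection, so that its gap lay in the luciferase means, 254 ± 37.2 and 54.8 ± 1.60, beside 272 ± 95.9 in untransfected cells. Over all probe sets 7 were called for this difference (0.0525%), each with the lower difference by lipid.

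Of the 29 probe sets that were higher by lipid at an unadjusted p below 0.001, 24 (82.8%) were also above 0 by nucleofection and 21 were called there. Over all probe sets, 38.6% were above 0 by nucleofection. Of the 10 that were lower by lipid at that p, 5 (50.0%) were below 0 by nucleofection, where 61.0% of all probe sets lay, and 0 were called there by limma. Among the 12 next higher probe sets 9 had the same sign and 8 were called by nucleofection. The 4 that were not called there are those of MTARC1 (−0.32), SORBS3 (−0.16), USF2 (−0.90) and UGDH (0.31). Among the 12 next lower probe sets 8 had the same sign and 0 were called by limma, where EIF5B at −0.51 and SMC3 at −0.57 were the 2 lowest. IFIT2, SZRD1, TMEM209 and FAHD2A lay above 0 there, at 0.28, 0.20, 0.03 and 0.48.

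**Figure D5:**
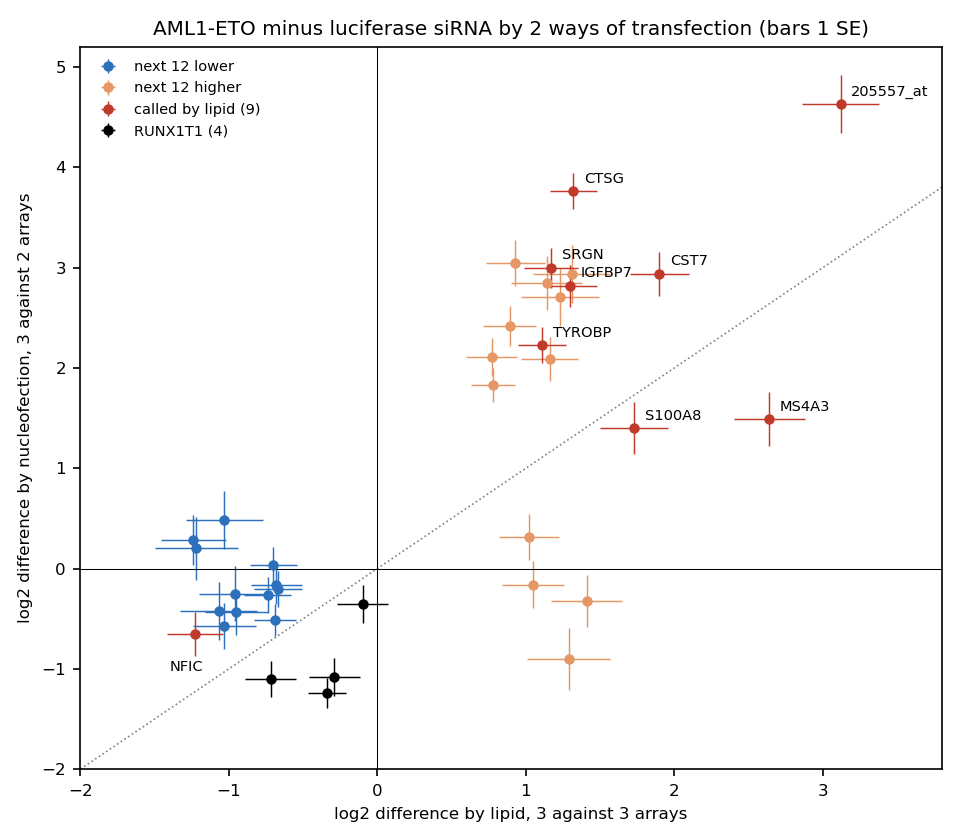
Log2 difference between AML1-ETO and luciferase siRNA by lipid (3 against 3 arrays) and by nucleofection (3 against 2 arrays) for the 9 called probe sets, the next 12 on each side and 4 RUNX1T1 probe sets, with bars of 1 SE and a dotted line of equal effect. Most higher probe sets lie above the line, at up to 4.63 by nucleofection, and those of S100A8, MS4A3, MTARC1, SORBS3, USF2 and UGDH lie below it. The value of 4.63 is that of 205557_at and is a bound, since its 2 nucleofected luciferase arrays (7.85 and 7.18) were below the floor. NFIC and the next 12 lower lie between −0.65 and 0.48 by nucleofection, and RUNX1T1 between −1.24 and −0.35.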

How the data were processed

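RNA from Kasumi-1 cells was measured on 14 single-colour oligonucleotide arrays with 22283 probe sets. The authors computed the deposited intensity of each probe set with MAS5 (source: per the submitters' processing notes), and 1 scale factor an array is given per the labels. The MAS5 version was not given in the sources used here. Because all arrays have 1 mean, these values hide any shift common to most genes.

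Signals were floored at 20 and taken to log2, which understates differences of dim genes. Probe sets at the floor on all arrays were left out of every fit (17203 remained of 22215 that are not controls), and the upper 60% by mean was tested (13329, mean signal at least 22.5). limma 3.58.1 in R 4.3.3 was fitted with 6 group means over all 14 arrays (8 residual degrees of freedom) and Benjamini-Hochberg adjustment. The 4 RUNX1T1 probe sets were read from the same fit without the filter. The number of arrays limits the precision, and read depth has no counterpart here.

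Symbols came from the platform annotation (19065 probe sets with 1 symbol, 1043 with several, 2107 with none). Named are the called probe sets, the next 12 each way by p with 1 symbol and no overlap, the RUNX1T1 probe sets, other probe sets of these genes, and up to 4 members of each list by p. Other list members are named for their role and were chosen after their values were seen. The arrays, gene lists and motifs were chosen with earlier results of these data known. The 29 lists held 617 distinct genes, of which 538 were on the array and 431 were tested.

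Replicate numbers are shared between the groups, but deviations of same-numbered arrays correlated at 0.037, −0.079 and 0.0614, so the numbers were not taken as pairs. Alternatives covered scaling, floor, filter, 1 probe set a gene, variance model, arrays in the fit, a scale factor covariate, a replicate block and leaving out each array. Figures were drawn with matplotlib 3.10.9. The siRNA strands came from the labels and promoter windows from RefSeq on GRCh38.p14.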

Additional observations from a re-analysis of the deposited data

Results flagged for a closer look

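For 3 named probe sets the effect of AML1-ETO siRNA differed between lipid and nucleofection by a test of the difference itself (limma, lipid effect minus nucleofection effect). The difference was −2.44 for CTSG 205653_at (adjusted p = 0.00239), −1.83 for SRGN 201858_s_at (adjusted p = 0.0345) and −2.12 for CD24 216379_x_at (adjusted p = 0.0341). All 3 were higher with AML1-ETO siRNA by either delivery, and their lipid differences were 1.32, 1.17 and 0.93. For CD24 the AML1-ETO arrays had a mean of 485 by lipid and 452 by nucleofection, and the luciferase arrays 254 and 54.8, beside 272 in untransfected cells, so the gap lay in the controls. For CTSG and SRGN both the AML1-ETO means (3000 and 5719 for CTSG, 2389 and 3955 for SRGN) and the luciferase means (1201 and 421, 1074 and 492) lay farther apart by nucleofection. Of all probe sets tested, 7 were called for this difference (0.0525%), each with the lower difference by lipid. The siRNA concentration differed too, 240 nM and 1.5 µM, so dose and delivery cannot be told apart.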

How the results depend on the processing

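The count of 9 called probe sets by lipid was 5 without the filter on low values, 17 with an intensity trend and robust prior (14 higher, 3 lower), 0 with only the 6 arrays of the comparison in the fit (667 with an unadjusted p below 0.05) and 5 with a replicate block. Leaving out 1 array gave 4 to 6, with 4 without AML1-ETO replicate 3 or luciferase replicate 2, 5 without AML1-ETO replicate 1 and 6 without any other. Of the 9, CST7 and CTSG were called under 17 of 18 alternatives each, 205557_at under 16 of 17 and MS4A3 under 15 of 17, but S100A8 under 9 of 17, IGFBP7 under 10 of 18, SRGN under 8 of 18, TYROBP under 5 of 17 and NFIC under 4 of 18. The count against untransfected cells, 9, was 5 with a floor of 10, 4 without the filter, 18 with the trend, 0 with only 2 groups in the fit (723 with an unadjusted p below 0.05) and 4 with a replicate block. It ran from 0 to 11 when 1 array was left out. The higher share of called probe sets there was 81.8% with quantile scaling and 77.8% with one median, beside 88.9%. The cause of these changes was not tested. RUNX1T1 205529_s_at kept its sign without a call under every alternative run, from −0.26 to −0.43, and 216832_at ran from −0.19 to 0.01 when 1 array was left out, the turn in sign (0.01) being without luciferase replicate 3. The smallest difference called was 1.11 in size, but with a floor of 64 LAPTM5 201721_s_at was called at 0.78 (adjusted p = 0.0308; 0.00278 to 0.495 over its alternatives) and LST1 214574_x_at at 1.03 (adjusted p = 0.0321; 0.0303 to 0.749 over its alternatives).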
